A study of Mus musculus with 12 samples.

Results

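Genes of DNA replication and of mitosis were followed across 3 culture models of the mouse adipocyte and mouse fat tissue. The genes were listed by name for their known roles in the cell cycle. Of the 50 listed, 49 were measured by an array probe set that carries exactly 1 gene symbol, out of 19938 genes measured in this way. They were divided by role into 24 genes of replication and S phase entry and 25 genes of mitosis. The mitotic cyclin gene Ccnb1 had no such probe set and has no value here. Where a gene had several probe sets, which was so for Pcna and Top2a, the gene was read from its brightest probe set, by the mean of all 12 arrays.

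RNA was hybridised to 12 Affymetrix arrays, 3 for each of 4 groups, and the labels call each set of 3 biological replicates. Nothing more is given on cultures or animals, so p-values measure the spread between these samples, which may be technical. The 3T3-L1 group was adipocytes made from 3T3-L1 cells, an established mouse fibroblast line that turns into fat cells after hormonal induction, so its replicates share a line. The PMEF group was adipocytes made from primary mouse embryonic fibroblasts, and the ES group was adipocytes made from mouse embryonic stem cells. The eWAT group was fat tissue of healthy wild-type mice, and eWAT usually stands for epididymal white adipose tissue, which holds blood vessels, immune cells and precursor cells beside fat cells. The sources used here do not state strain, age or sex of the mice, the induction agents or the day of harvest. All 10 adipocyte markers, among them Adipoq, Plin1 and Pparg, were bright in every group, although most were lower in 3T3-L1 and PMEF adipocytes than in eWAT, as given below. Values are log2 intensities as deposited, a difference of 1 is a 2-fold change, and a gene was called higher or lower at a Benjamini-Hochberg adjusted p under 0.05 in a limma fit of all 12 arrays over 19938 genes. In bulk RNA, fewer cycling cells and less RNA per cell cannot be told apart.

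Before a cell can copy its DNA, the loading factors Cdc6 and Cdt1 place the ring-shaped Mcm helicase at origins, and cyclin E with Cdk2 and the transcription factor E2F1 drive entry into S phase. Genes of S phase are controlled mainly by E2F factors, whereas most genes of mitosis are switched on later, through CCAAT boxes and a short element called the CHR that is bound by repressor and activator complexes sharing the MuvB core. Preadipocytes of the 3T3-L1 line divide again after induction and then leave the cell cycle as they fill with lipid, and mature fat cells rarely divide.

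Most cell cycle genes were higher in all 3 models than in eWAT. Of the 24 replication genes, 20 were called higher in 3T3-L1 adipocytes than in eWAT and 0 lower, with a median difference of 0.68, where 30.8% of all genes were called higher and 22.5% lower. None of the 24 was below eWAT at an unadjusted p under 0.05 either (0 in the limma fit), and the lowest difference was 0.12. The count called higher in 3T3-L1 adipocytes moved with centring, to 15 on reference genes and 24 with arrays centred on their medians. In both, 0 were called lower. In PMEF adipocytes 14 replication genes were called higher and 2 lower, with a median of 0.31, where 24.7% of all genes were called higher and 21.6% lower. In ES adipocytes 16 were called higher and 2 lower, with a median of 0.42, where 28.8% of all genes were called higher and 20.9% lower. On reference genes these counts in ES adipocytes were 11 and 4, with the median of all genes at -0.23. The median over all genes was 0.05 in the first and the second of these comparisons and 0.04 in the last.

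Mitotic genes were called higher than in eWAT in 18 of 25 cases in 3T3-L1 adipocytes (2 lower, median 0.54), in 24 of 25 in PMEF adipocytes (0 lower, median 0.83) and in 22 of 25 in ES adipocytes (1 lower, median 0.81). Shares of all genes called higher were 30.8%, 24.7% and 28.8% in this order, and lower 22.5%, 21.6% and 20.9%. On reference genes the mitotic counts were 13 higher and 2 lower in 3T3-L1, 24 and 0 in PMEF, and 19 and 1 in ES adipocytes. With arrays centred on their medians they were 23 and 1 in 3T3-L1 adipocytes. In PMEF adipocytes 0 mitotic genes were lower at an unadjusted p under 0.05 in the limma fit as well. The 3 comparisons share the eWAT arrays and are not independent. Of the 25 mitotic genes 23 had their lowest group mean in eWAT, as had 18 of the 24 replication genes, against 33.3% of all genes.

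The models differed in which set stood out. Of the 24 replication genes 15 had their highest group mean in 3T3-L1 adipocytes, where 30.4% of all genes had theirs. Of the 25 mitotic genes 14 were highest in PMEF adipocytes, where 27% of all genes were highest. With each gene set to its mean over the 12 arrays, the median replication gene minus the median mitotic gene was 0.25, 0.19 and 0.32 on the 3T3-L1 arrays. The same difference was -0.32, -0.49 and -0.33 on the PMEF arrays and -0.07, -0.12 and -0.20 on the ES arrays. On the eWAT arrays it was 0.18, 0.17 and 0.18, with both medians low. The 3T3-L1, PMEF and ES arrays did not overlap in this measure. A shift of a whole array cancels in it, so it does not move with how arrays are centred.

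**Figure D1:**
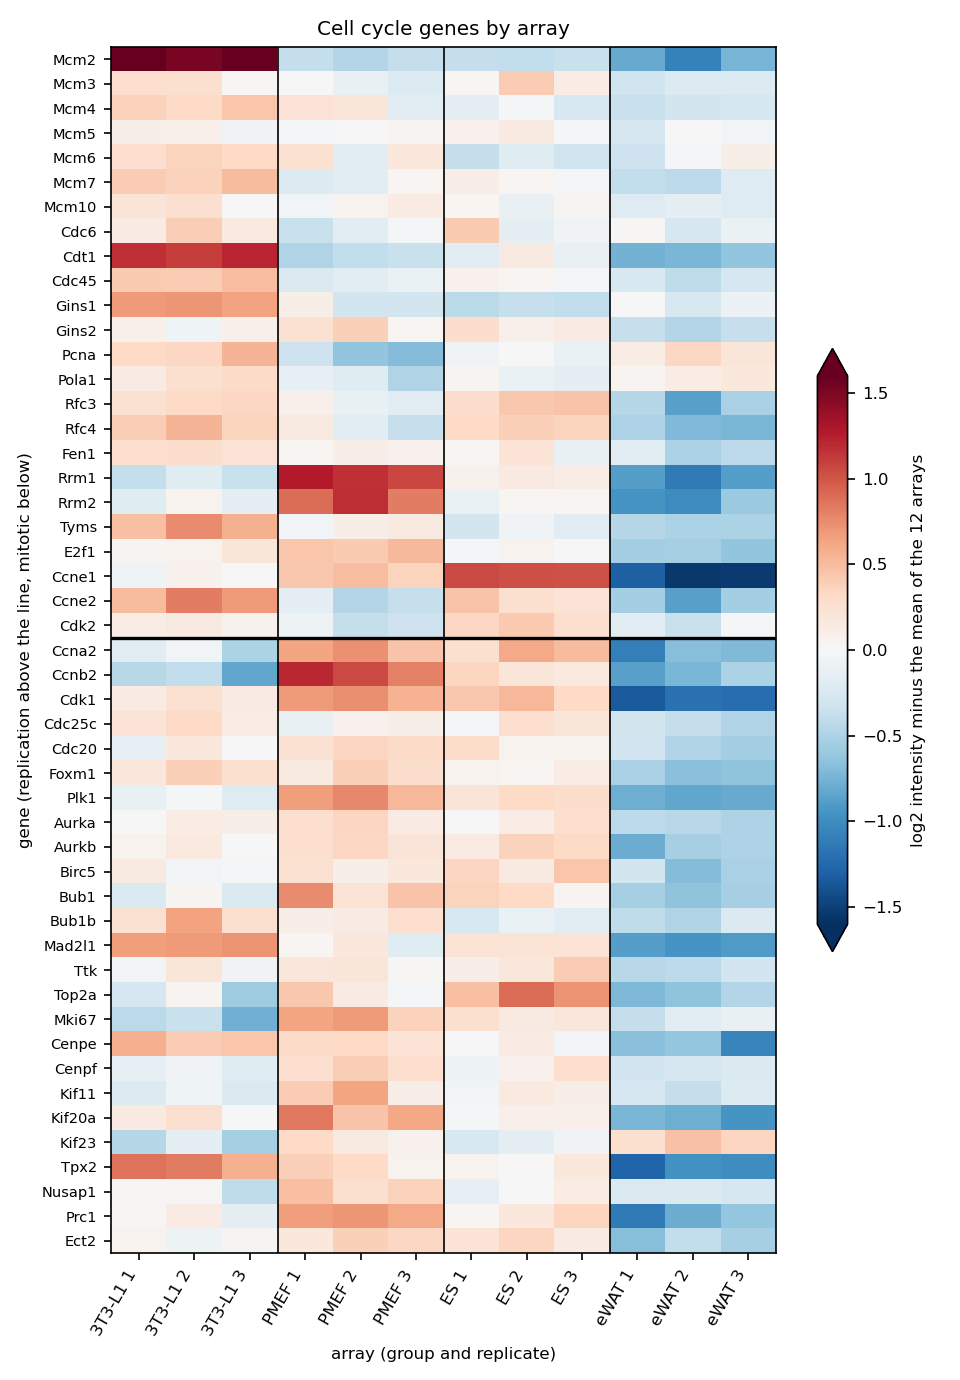
The 49 genes (rows, replication above the thick line, mitotic below) on the 12 arrays (columns, by group and replicate), coloured by log2 intensity minus the gene's mean over the 12 arrays. The eWAT columns are blue for most rows, Mcm2 and Cdt1 are red in the 3T3-L1 columns, and Rrm1, Rrm2 and Ccnb2 are red in the PMEF columns.

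The promoters of the 2 sets differ in their letters, and 7 of them are shown because their genes carry the differences described next. RefSeq promoters (GRCm38.p6, 250 bases before to 50 after the start) were at hand for 40 of the 50 listed genes, 20 of each set. A listed gene with several promoters was counted once, with a match if any of them had it. The shares over all mouse promoters count each promoter, so the units differ. The CHR letters TTTGAA, searched on both strands, occurred for 14 of 20 mitotic genes (70%) and for 3 of 20 replication genes (15%), against 17.9% of 32851 mouse promoters of the same length. E2F-like letters (TTTCCCGC, TTTGGCGC, TTTCGCGC or TTCCCGCC on either strand, of which the first and the last can overlap) occurred for 11 of 20 replication genes (55%) and 1 of 20 mitotic genes (5%), against 3.49% of all promoters. CCAAT, on either strand, was found for 17 of 20 mitotic (85%) and 13 of 20 replication genes (65%), against 37.4% of all promoters. A match is a run of letters and not a site shown to be bound.

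Printed first are Ccne1, Cdk1, Mad2l1 and Prc1, which had the largest smallest difference from eWAT among members with a promoter at hand, and then Mcm2, Ccnb2 and Cdt1, added after their values were seen. They lie at chr7:38107441-38107740 (minus strand), chr10:69352863-69353162 (minus), chr6:66534971-66535270 (plus), chr7:80294201-80294500 (plus), chr6:88898731-88899030 (minus), chr9:70421505-70421804 (minus) and chr8:122567765-122568064 (plus). Each is written from 5′ to 3′ along its gene, with the searched letters in capitals (ATTGG is CCAAT on the other strand).
Ccne1: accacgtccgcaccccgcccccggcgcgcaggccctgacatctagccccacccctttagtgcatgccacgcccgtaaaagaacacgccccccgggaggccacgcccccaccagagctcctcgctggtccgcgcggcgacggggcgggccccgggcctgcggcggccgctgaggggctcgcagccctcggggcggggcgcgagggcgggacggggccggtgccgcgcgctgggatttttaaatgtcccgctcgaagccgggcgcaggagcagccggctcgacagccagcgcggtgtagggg
Cdk1: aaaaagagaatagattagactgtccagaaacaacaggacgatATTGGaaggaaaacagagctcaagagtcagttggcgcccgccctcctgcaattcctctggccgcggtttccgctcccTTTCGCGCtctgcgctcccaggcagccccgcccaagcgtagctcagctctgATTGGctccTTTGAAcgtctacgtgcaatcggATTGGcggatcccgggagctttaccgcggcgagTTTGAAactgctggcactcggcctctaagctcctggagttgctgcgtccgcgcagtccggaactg
Mad2l1: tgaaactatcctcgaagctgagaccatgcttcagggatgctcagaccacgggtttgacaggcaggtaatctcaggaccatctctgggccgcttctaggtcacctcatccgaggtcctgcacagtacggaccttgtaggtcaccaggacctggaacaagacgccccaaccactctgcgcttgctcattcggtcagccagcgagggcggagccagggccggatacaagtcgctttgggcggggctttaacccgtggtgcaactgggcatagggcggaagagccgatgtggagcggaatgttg
Prc1: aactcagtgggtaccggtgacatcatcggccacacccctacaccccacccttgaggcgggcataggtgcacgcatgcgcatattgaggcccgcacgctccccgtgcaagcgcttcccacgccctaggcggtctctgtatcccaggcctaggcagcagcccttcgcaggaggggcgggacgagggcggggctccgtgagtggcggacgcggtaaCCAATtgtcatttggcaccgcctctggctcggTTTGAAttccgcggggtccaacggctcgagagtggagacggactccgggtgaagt
Mcm2: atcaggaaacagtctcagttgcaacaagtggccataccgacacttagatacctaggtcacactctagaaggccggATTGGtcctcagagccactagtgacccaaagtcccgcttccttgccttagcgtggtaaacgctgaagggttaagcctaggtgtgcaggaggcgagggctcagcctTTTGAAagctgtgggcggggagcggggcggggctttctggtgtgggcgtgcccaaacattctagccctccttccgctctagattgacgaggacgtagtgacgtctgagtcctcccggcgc
Ccnb2: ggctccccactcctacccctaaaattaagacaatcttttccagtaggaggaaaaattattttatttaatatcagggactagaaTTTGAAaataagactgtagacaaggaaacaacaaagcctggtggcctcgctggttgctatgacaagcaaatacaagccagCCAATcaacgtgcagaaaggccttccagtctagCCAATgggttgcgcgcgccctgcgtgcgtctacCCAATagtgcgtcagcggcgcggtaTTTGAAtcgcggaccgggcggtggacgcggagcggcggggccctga
Cdt1: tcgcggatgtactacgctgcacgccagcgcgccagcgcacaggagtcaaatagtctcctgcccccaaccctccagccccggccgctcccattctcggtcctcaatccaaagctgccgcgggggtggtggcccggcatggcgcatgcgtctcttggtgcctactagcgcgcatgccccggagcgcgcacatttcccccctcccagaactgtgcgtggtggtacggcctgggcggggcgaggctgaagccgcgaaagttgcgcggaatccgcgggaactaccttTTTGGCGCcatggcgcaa
Cdk1, Prc1 and Ccnb2 hold CHR letters within 15 bases of the start, downstream of CCAAT boxes. Cdk1 alone among the 20 mitotic genes with a promoter also holds an E2F-like match. The Mad2l1 and Ccne1 windows hold none of the searched letters, and the Cdt1 window holds only an E2F-like match. Cdt1 was picked for print among the replication genes with such a match, so its match was fixed by that choice. Mcm2, a replication gene, holds a CHR match and a CCAAT box on the opposite strand.

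The 9 genes taken next license origins, except Mcm10, which acts after licensing. Of these 9, 7 were called higher in 3T3-L1 adipocytes than in eWAT, 4 in PMEF and 4 in ES adipocytes. None was called lower. Over all genes 30.8%, 24.7% and 28.8% were called higher in these models, in the same order. Mcm2, a helicase subunit, read 9.21, 8.99 and 9.19 on the 3T3-L1 arrays, 7.09, 7 and 7.09 on the PMEF arrays, 7.09, 7.08 and 7.11 on the ES arrays and 6.66, 6.39 and 6.72 on the eWAT arrays. The 3T3-L1 arrays stood far above all others. Mcm2 was 5.83-fold higher there than in eWAT (log2 difference 2.54 ± 0.09 SE, adjusted p = 3.25e-11), against 0.47 ± 0.09 in PMEF and 0.51 ± 0.09 in ES adipocytes. Cdt1, which loads the helicase, followed the same order. It read 7.70, 7.64 and 7.76 in 3T3-L1, 6.05, 6.14 and 6.18 in PMEF, 6.37, 6.68 and 6.42 in ES and 5.78, 5.8 and 5.90 in eWAT. Its difference from eWAT was 1.87 ± 0.09 in 3T3-L1, 0.29 ± 0.09 in PMEF adipocytes and 0.66 ± 0.09 in ES adipocytes, and the groups did not overlap.

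In 3T3-L1 adipocytes the other helicase subunits lay less far above eWAT than Mcm2. Mcm7 differed from eWAT by 0.77 ± 0.09, Mcm4 by 0.69 ± 0.10, Mcm3 by 0.43 ± 0.11 and Mcm6 by 0.40 ± 0.12 in 3T3-L1 adipocytes, all called, although Mcm6 was not called without eWAT replicate 1 (0.28, adjusted p = 0.0588). Mcm5, a subunit of the same ring, passed the test in none of the 6 comparisons as deposited, with differences between -0.03 and 0.17. In 3T3-L1 adipocytes against eWAT it was called higher after quantile normalization (0.28) and median centring (0.36), and other comparisons of it also moved with the centring. Its arrays ran from 6.37 to 6.79 over all 4 groups. Mcm10, which helps start unwinding, was called higher in 3T3-L1 (0.34 ± 0.08) and, less firmly, in PMEF adipocytes (0.24 ± 0.08, adjusted p = 0.0285), where leaving out PMEF replicate 2 or 3 or eWAT replicate 1 or 3 ended the call (lowest value 0.20). On reference genes Mcm3 (0.14), Mcm6 (0.11) and Mcm10 (0.05) were not called in 3T3-L1 adipocytes, nor were Mcm3 (0.17) and Mcm7 (0.11) in ES adipocytes. Cdc6, the partner of Cdt1 in loading, was dim on all PMEF and eWAT arrays and was not called against eWAT in any model as deposited. In 3T3-L1 adipocytes it stood just outside the threshold (0.34 ± 0.14, adjusted p = 0.056, no overlap of arrays). It was called there after quantile normalization (0.48) or median centring (0.55), with a fit of those 2 groups or a trended and robust variance (both 0.34), and without ES replicate 1 or 2 (0.34) or eWAT replicate 1 (0.41). The dim level was taken as the 95th percentile of 1194 olfactory and vomeronasal receptor genes on each array, 5.04 to 5.35.

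Cdc45 and the GINS subunits Gins1 and Gins2 complete the moving helicase. Gins1 read 6.37, 6.4 and 6.33 in 3T3-L1 adipocytes, 5.79, 5.4 and 5.4 in PMEF, 5.26, 5.32 and 5.30 in ES and 5.68, 5.44 and 5.60 in eWAT. The 3T3-L1 arrays were the highest and the ES arrays the lowest, with PMEF and eWAT overlapping. Against eWAT the difference was 0.80 ± 0.10 in 3T3-L1 (adjusted p = 1.16e-05), -0.04 ± 0.10 in PMEF and -0.28 ± 0.10 in ES adipocytes (adjusted p = 0.0325). The call in ES adipocytes was lost without any 1 of the 3 ES arrays or without eWAT replicate 1 or 3 (-0.29 to -0.23), and after quantile normalization (-0.27). Cdc45 was called higher in 3T3-L1 (0.75 ± 0.07) and ES adipocytes (0.33 ± 0.07), and stood at 0.14 ± 0.07 in PMEF, where it was not called. Gins2 was called higher in 3T3-L1, PMEF and ES adipocytes, by 0.43, 0.62 and 0.56. On reference genes the calls for Cdc45 in ES (0.06) and for Gins2 in 3T3-L1 adipocytes (0.13) were lost.

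Pcna, the sliding clamp of the replication fork, departed from the rest. It read 9.75, 9.76 and 9.97 in 3T3-L1, 9.10, 8.80 and 8.74 in PMEF, 9.38, 9.43 and 9.32 in ES and 9.55, 9.76 and 9.62 in eWAT. The eWAT arrays overlapped with those of 3T3-L1 (0.18 ± 0.10, called only after median centring, at 0.39), and the PMEF arrays were the lowest. Pcna was called lower than eWAT in PMEF (-0.77 ± 0.10, adjusted p = 2.69e-05) and in ES adipocytes (-0.27 ± 0.10, adjusted p = 0.0409), the latter lost when any 1 ES array or eWAT replicate 2 or 3 was left out (-0.30 to -0.21). Its other single-symbol probe set gave -0.76 and -0.26. The Pcna call in ES adipocytes was also lost with a block on replicate number (-0.269) and on reference genes without Pgk1 (-0.259). Pola1, the catalytic subunit of the polymerase that makes primers, was also lower in PMEF adipocytes than in eWAT (-0.38 ± 0.10, adjusted p = 0.00499) and was not called in the other models as deposited. It was called higher in 3T3-L1 adipocytes after quantile normalization (0.31) or median centring (0.33), and lower in ES adipocytes on reference genes (-0.45). The clamp loader subunits went the other way. Rfc4 was higher than eWAT by 1.07 ± 0.11 in 3T3-L1, 0.51 ± 0.11 in PMEF adipocytes and 0.99 ± 0.11 in ES adipocytes, and Rfc3 by 0.91, 0.54 and 0.998. Fen1, the flap nuclease of Okazaki fragments, was higher by 0.62, 0.43 and 0.41, and on reference genes was not called in ES adipocytes (0.14).

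The 3 genes that supply deoxynucleotides were called higher than eWAT in every model, except Tyms in ES adipocytes on reference genes (0.05). Shares of all genes called higher were 30.8%, 24.7% and 28.8% in 3T3-L1, PMEF and ES adipocytes. Ribonucleotide reductase was brightest in PMEF adipocytes. Its large subunit Rrm1 read 9.90, 9.80 and 9.71 in PMEF, 8.70, 8.78 and 8.76 in ES, 8.25, 8.44 and 8.28 in 3T3-L1 and 7.76, 7.50 and 7.76 in eWAT. No 2 groups overlapped. Its excess over eWAT was 2.13 ± 0.09 in PMEF (4.36-fold, adjusted p = 2.51e-10), 1.07 ± 0.09 in ES and 0.65 ± 0.09 in 3T3-L1 adipocytes. The small subunit Rrm2 read 7.45, 7.74 and 7.38 in PMEF, 6.45, 6.59 and 6.59 in ES, 6.37, 6.62 and 6.41 in 3T3-L1 and 5.62, 5.55 and 5.97 in eWAT, so ES and 3T3-L1 overlapped between the PMEF arrays above and the eWAT arrays below. Tyms, thymidylate synthase, was instead highest in 3T3-L1 adipocytes, with excesses of 1.09 ± 0.09 in 3T3-L1, 0.56 ± 0.09 in PMEF adipocytes and 0.31 ± 0.09 in ES adipocytes.

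The 2 cyclin E genes, whose products drive S phase entry with Cdk2, differed in which model they were highest in. Ccne1 read 8.82, 8.79 and 8.78 in ES, 8.19, 8.26 and 8.12 in PMEF, 7.71, 7.83 and 7.76 in 3T3-L1 and 6.46, 6.22 and 6.23 in eWAT. The groups lay apart, and the difference from eWAT was 2.49 ± 0.08 in ES (5.63-fold, adjusted p = 2.73e-11), 1.89 ± 0.08 in PMEF and 1.47 ± 0.08 in 3T3-L1 adipocytes, the largest minimum over the 3 models of any of the 49 genes. Ccne2 read 6.28, 6.60 and 6.46 in 3T3-L1, 6.23, 6.04 and 6 in ES, 5.63, 5.31 and 5.41 in PMEF and 5.24, 4.91 and 5.24 in eWAT, the latter dim on 2 of 3 arrays. The 3T3-L1 arrays were thus the highest, at 1.32 ± 0.12 above eWAT, with ES adipocytes at 0.96 ± 0.12. In PMEF adipocytes its excess of 0.32 ± 0.12 (adjusted p = 0.0393) was not called without PMEF replicate 1 (0.23) or 3 (0.34) or eWAT replicate 2 (0.21), or after quantile normalization (0.27). E2f1 was higher than eWAT in all models and most in PMEF adipocytes (1.04 ± 0.07, against 0.67 in 3T3-L1 and 0.58 in ES). Cdk2 was called higher in ES adipocytes (0.52 ± 0.10) and stood at 0.29 ± 0.10 in 3T3-L1, called except without 3T3-L1 replicate 2 (0.28) or eWAT replicate 2 (0.21) or on reference genes (-0.001), and at -0.08 ± 0.10 in PMEF.

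**Figure D2:**
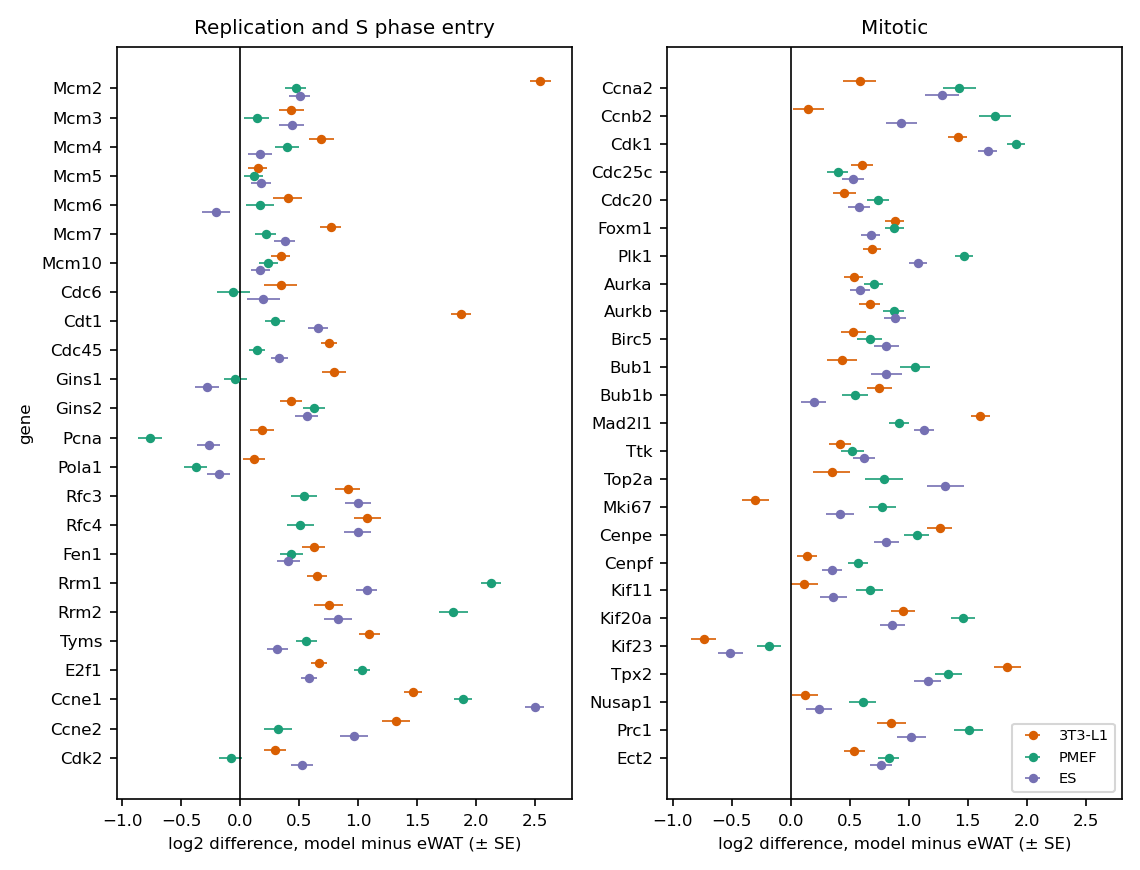
Log2 difference of each model from eWAT (points, ± SE) for the 24 replication genes (left) and the 25 mitotic genes (right), with the line at 0. Mcm2 in 3T3-L1 (2.54), Ccne1 in ES (2.49) and Rrm1 in PMEF adipocytes (2.13) lie farthest to the right, and Pcna in PMEF (-0.77) and Kif23 in 3T3-L1 (-0.74) farthest to the left.

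Cdk1, the kinase that drives entry into mitosis, lay well above tissue in every model. It read 5.93, 6.08 and 6.06 in eWAT, 7.41, 7.52 and 7.40 in 3T3-L1, 7.70, 7.80 and 7.59 in ES and 7.95, 8.02 and 7.83 in PMEF. Every model array was more than 1 log2 unit above every eWAT array. The difference was 1.42 ± 0.08 in 3T3-L1, 1.91 ± 0.08 in PMEF adipocytes and 1.67 ± 0.08 in ES adipocytes (adjusted p = 3.86e-09, 3.08e-10 and 1.42e-09). Its partners were less even. Ccnb2, cyclin B2, read 8.40, 8.25 and 8 in PMEF, 7.53, 7.39 and 7.35 in ES, 6.75, 6.80 and 6.36 in 3T3-L1 and 6.32, 6.46 and 6.68 in eWAT. The 3T3-L1 and eWAT arrays overlapped (0.15 ± 0.13, not called, but called after median centring at 0.36), while PMEF lay 1.73 ± 0.13 and ES 0.94 ± 0.13 above eWAT. Ccna2, cyclin A2, was 0.58 ± 0.14 above eWAT in 3T3-L1, 1.43 ± 0.14 in PMEF adipocytes and 1.28 ± 0.14 in ES adipocytes. On reference genes Ccna2 was not called in 3T3-L1 adipocytes (0.29). Foxm1, a transcription factor of mitotic genes, differed from eWAT by 0.88 in 3T3-L1, 0.88 in PMEF adipocytes and 0.68 in ES adipocytes, all called. Cdc20, an activator of the anaphase promoting complex, was called at 0.45, 0.74 and 0.58, of which the first was lost on reference genes (0.16). The phosphatase gene Cdc25c was called higher in each model, although all its 12 values, 4.02 to 4.82, were dim.

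All 8 genes of the mitotic kinases and the spindle checkpoint were called higher than in eWAT in 3T3-L1 and in PMEF adipocytes. In ES adipocytes 7 of 8 were. Over all genes 30.8%, 24.7% and 28.8% were called higher in 3T3-L1, PMEF and ES adipocytes. Plk1, Polo-like kinase, read 7.30, 7.40 and 7.16 in PMEF, 6.83, 6.95 and 6.91 in ES, 6.51, 6.61 and 6.42 in 3T3-L1 and 5.85, 5.8 and 5.82 in eWAT, with no overlap of any groups. Mad2l1, which encodes the checkpoint protein Mad2, had another order. It read 8.60, 8.61 and 8.65 in 3T3-L1, 8.14, 8.14 and 8.15 in ES, 7.96, 8.09 and 7.73 in PMEF and 7.04, 6.98 and 7.02 in eWAT. Its excess over eWAT was 1.61 ± 0.08, 1.13 ± 0.08 and 0.92 ± 0.08 in this order of models. Aurka and Aurkb, the Aurora kinases, exceeded eWAT by 0.53 to 0.70 and by 0.67 to 0.88. Birc5, the survivin subunit of the chromosomal passenger complex, did so by 0.53 to 0.81, and on reference genes was not called in 3T3-L1 adipocytes (0.24). Bub1 and Bub1b, checkpoint kinases, were dim on all 3 eWAT arrays. Bub1 was highest in PMEF (1.05 ± 0.13), and its call in 3T3-L1 (0.44 ± 0.13) was lost without 3T3-L1 replicate 2 (0.35) and on reference genes (0.14). Bub1b was highest in 3T3-L1 (0.75 ± 0.11) and not called in ES adipocytes (0.19 ± 0.11). Ttk was called higher in each model but dim on all 12 arrays, and was not called in 3T3-L1 adipocytes on reference genes (0.13).

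Mki67, which encodes the proliferation antigen Ki-67, was lower in 3T3-L1 adipocytes than in either other model. It read 5.95, 6.03 and 5.61 there, 6, 6.21 and 6.27 in eWAT, 6.64, 6.53 and 6.56 in ES and 7.01, 7.06 and 6.75 in PMEF. The 3T3-L1 arrays overlapped with eWAT and lay below the other models. The difference from eWAT was 0.78 ± 0.12 in PMEF (adjusted p = 8.89e-05), 0.42 ± 0.12 in ES (adjusted p = 0.00874) and -0.30 ± 0.12 in 3T3-L1 adipocytes (adjusted p = 0.0453). That last call was at the threshold: without 3T3-L1 replicate 3 the value was -0.17, without eWAT replicate 2 -0.27 and without eWAT replicate 3 -0.24, none called. It was also lost without PMEF replicate 1 or any 1 ES array, which enter the estimate of spread alone, and under other scalings of the arrays, namely quantile normalization (-0.09) or median centring (-0.09). On reference genes the call in ES adipocytes was lost (0.15). Top2a, the topoisomerase that untangles sister chromatids, read 6.68, 7.10 and 6.92 in ES, 6.64, 6.34 and 6.17 in PMEF, 5.93, 6.25 and 5.63 in 3T3-L1 and 5.49, 5.56 and 5.73 in eWAT. ES adipocytes were the highest (1.31 ± 0.16 above eWAT), and 3T3-L1 overlapped with eWAT (0.35 ± 0.16, not called). Top2a was called higher in 3T3-L1 adipocytes without 3T3-L1 replicate 3 (0.50), after quantile normalization (0.54), after median centring (0.56) and with the mean of its probe sets (0.53). The second probe set in that mean was dim on every array (2.51 to 3.75). The kinetochore motor gene Cenpe was highest in 3T3-L1 (1.26 ± 0.11) and dim on all eWAT arrays, whereas Cenpf, a kinetochore protein, was called in PMEF (0.57) and ES adipocytes (0.35) and was dim on all 3T3-L1 and eWAT arrays. The Cenpf call in ES was lost on reference genes (0.08), and 3T3-L1 adipocytes gained one after quantile normalization (0.25) and median centring (0.35).

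Of the 7 genes of the spindle and cytokinesis, Tpx2 and Prc1 were dim on all eWAT arrays and above the dim level on every model array. Tpx2, a spindle assembly factor that activates Aurora A, read 6.74, 6.71 and 6.44 in 3T3-L1, 6.26, 6.19 and 5.93 in PMEF, 5.93, 5.88 and 6.05 in ES and 4.59, 4.91 and 4.88 in eWAT. It was highest in 3T3-L1 adipocytes, at 1.84 ± 0.11 above eWAT, with 1.34 ± 0.11 in PMEF and 1.16 ± 0.11 in ES. Prc1, which bundles the central spindle, was highest in PMEF adipocytes, at 1.51 ± 0.12 above eWAT, with 0.85 ± 0.12 in 3T3-L1 and 1.02 ± 0.12 in ES. The kinesin gene Kif20a was likewise highest in PMEF, with 1.46 ± 0.10 in PMEF, 0.95 ± 0.10 in 3T3-L1 and 0.86 ± 0.10 in ES adipocytes. Ect2, the exchange factor that starts the cleavage furrow, was called at 0.54, 0.83 and 0.77. Kif11, a spindle motor, was called in PMEF (0.67) and in ES adipocytes (0.36, lost without ES replicate 2 at 0.32 or eWAT replicate 2 at 0.32, and on reference genes at 0.09), and Nusap1, a spindle protein, in PMEF (0.61). After median centring both Kif11 (0.33) and Nusap1 (0.33) were called in 3T3-L1 adipocytes. Nusap1 was also called without 3T3-L1 replicate 3, in 3T3-L1 (0.26) and in ES adipocytes (0.24), and in ES adipocytes with a fit of those 2 groups (0.24).

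Kif23, a kinesin of the central spindle, was the only mitotic gene with its highest group mean in eWAT. It read 6.25, 6.47 and 6.34 there, 6.31, 6.14 and 6.06 in PMEF, 5.74, 5.85 and 5.94 in ES and 5.54, 5.84 and 5.47 in 3T3-L1. It was called lower than eWAT in 3T3-L1 (-0.74 ± 0.11, adjusted p = 3.90e-05) and ES adipocytes (-0.51 ± 0.11, adjusted p = 0.00109) and stood at -0.18 ± 0.11 in PMEF, not called. With Mki67 in 3T3-L1 adipocytes, these are the mitotic genes below tissue, and the count of 2 in 3T3-L1 falls to 1 wherever the Mki67 call is lost.

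**Figure D3:**
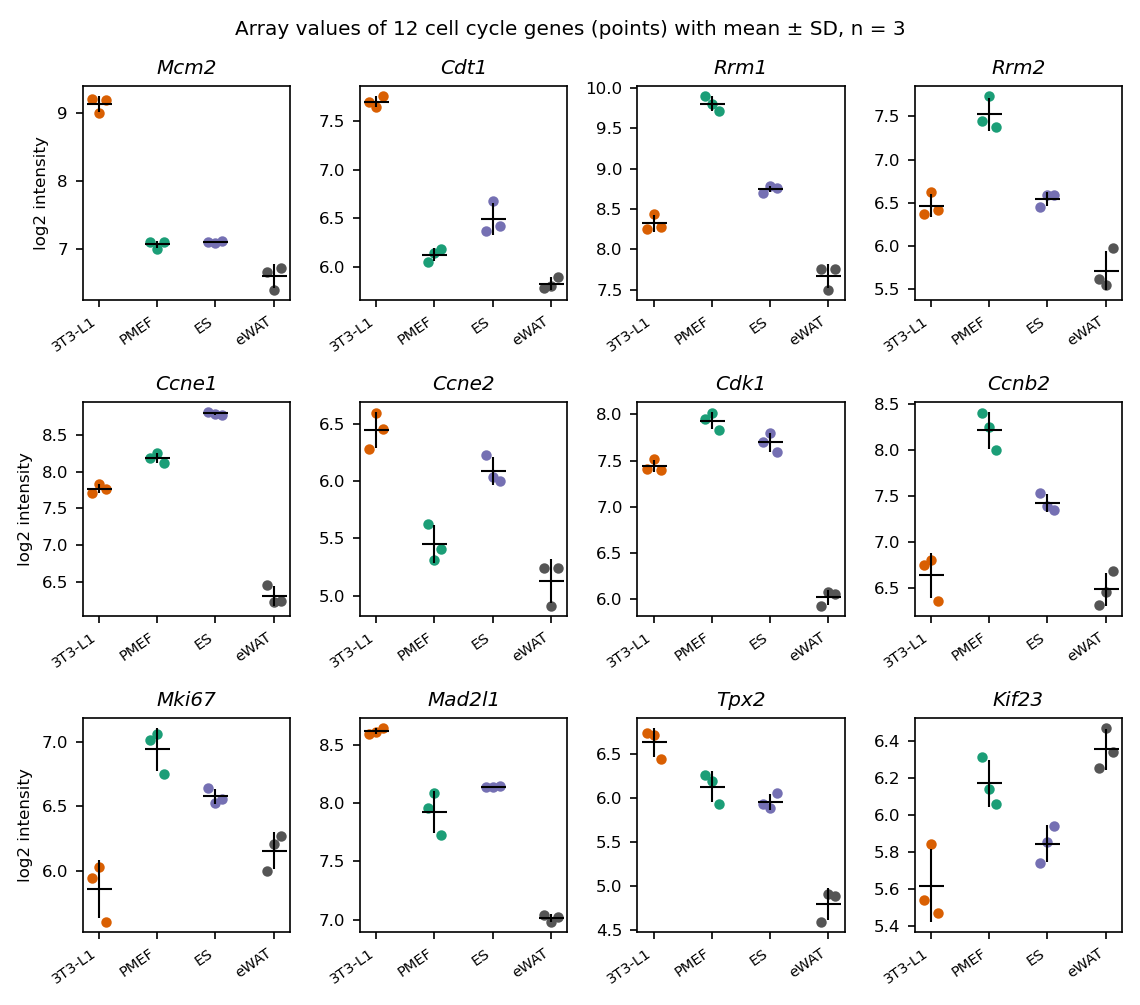
Log2 intensity on each array (points) with group mean and SD (bars, n = 3) for 12 genes, each panel with its own axis range. Mcm2, Cdt1, Mad2l1 and Tpx2 were highest in 3T3-L1, Rrm1, Rrm2, Cdk1, Ccnb2 and Mki67 in PMEF, Ccne1 in ES and Kif23 in eWAT.

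Set against each other, PMEF and 3T3-L1 adipocytes differed in opposite directions in the 2 sets. Of the 24 replication genes, 4 were called higher and 15 lower in PMEF adipocytes (median -0.37), where 22.3% of all genes were called higher and 27.8% lower, and the median of all genes was 0.01. Of the 25 mitotic genes, 15 were called higher and 2 lower (median 0.44). The size of both counts moved with how arrays were centred. On the mean of reference genes the replication counts were 7 higher and 9 lower and the mitotic counts 20 and 1, with the median of all genes at 0.31. With arrays centred on their medians they were 3 and 19 for replication and 11 and 6 for mitosis, with the median of all genes at -0.21. In each of these settings the median replication gene was negative and the median mitotic gene positive.

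The replication genes lower in PMEF adipocytes were led by Mcm2 (-2.07 ± 0.09, 4.21-fold, adjusted p = 3.05e-10), Cdt1 (-1.58 ± 0.09, 2.98-fold, adjusted p = 2.79e-09) and Ccne2 (-0.995 ± 0.12). Pcna (-0.95 ± 0.10), Gins1 (-0.84 ± 0.10), Cdc45 (-0.61 ± 0.07), Rfc4 (-0.56 ± 0.11), Mcm7 (-0.55 ± 0.09) and Tyms (-0.54 ± 0.09) followed. Arrays of PMEF and 3T3-L1 did not overlap for any of these 9 genes, as they did not for 56.5% of all genes. Smaller calls for Mcm3 and Mcm4 (both -0.29) were lost on leaving out 1 of several arrays, with values up to -0.23 for Mcm3 (without PMEF replicate 3) and -0.16 for Mcm4 (without PMEF replicate 3), and on reference genes (both 0.005). Cdc6 (-0.40 ± 0.14), dim on the PMEF arrays, lost its call without 3T3-L1 replicate 2 (-0.32) or PMEF replicate 1 (-0.32) or 2 (-0.41). The 4 that ran against the rest were Rrm1 (1.48 ± 0.09), Rrm2 (1.06 ± 0.12), Ccne1 (0.42 ± 0.08) and E2f1 (0.37 ± 0.07). All but E2f1 stayed called under each centring tried, E2f1 being at 0.15 with arrays centred on their medians.

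Mitotic genes higher in PMEF than in 3T3-L1 adipocytes were led by Ccnb2 (1.58 ± 0.13, 2.99-fold, adjusted p = 2.47e-07), Mki67 (1.08 ± 0.12, 2.11-fold, adjusted p = 3.05e-06) and Ccna2 (0.85 ± 0.14, adjusted p = 0.000178). Plk1 (0.78 ± 0.08), Prc1 (0.66 ± 0.12), Bub1 (0.61 ± 0.13), Kif23 (0.55 ± 0.11), Kif11 (0.55 ± 0.11), Kif20a (0.51 ± 0.10) and Cdk1 (0.49 ± 0.08) followed, again with no overlap of arrays, as for 56.5% of all genes. Running against the set were Mad2l1 (-0.69 ± 0.08, adjusted p = 7.86e-06) and Tpx2 (-0.50 ± 0.11, adjusted p = 0.00207), the latter not called on reference genes (-0.21). Foxm1 stood at -0.003 ± 0.08 and Aurkb at 0.20 ± 0.09, not called, but on reference genes both were called higher (0.29 and 0.50), and Foxm1 was called lower after quantile normalization (-0.21) and median centring (-0.22). The call for Top2a (0.44 ± 0.16, adjusted p = 0.0319) was not firm, since it was lost without 3T3-L1 replicate 1 (0.44) or 3 (0.29) or PMEF replicate 1 (0.32) or 2 (0.47). Its dimmer probe set gave -0.73 but read under the dim level on every array. In this comparison 22.3% of all genes were called higher and 27.8% lower. Among the mitotic genes with CHR letters in the promoter, 11 of 14 were called higher in PMEF adipocytes and 0 lower (median 0.47), against 2 higher and 1 lower of the 5 measured genes with a promoter but without the letters (median 0.14). The one lower was Mad2l1, while Tpx2 had no promoter at hand. Bub1b, which has the letters, was called lower after quantile normalization (-0.425) and median centring (-0.423), where Cdc20, Ect2 and Top2a lost their calls. Of the 3 replication genes with the letters, Cdc45, Fen1 and Mcm2, 2 were called lower and none higher (median -0.61). Of the 17 replication genes without them, 4 were called higher and 10 lower (median -0.37). With so few genes this is a description and was not tested.

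**Figure D4:**
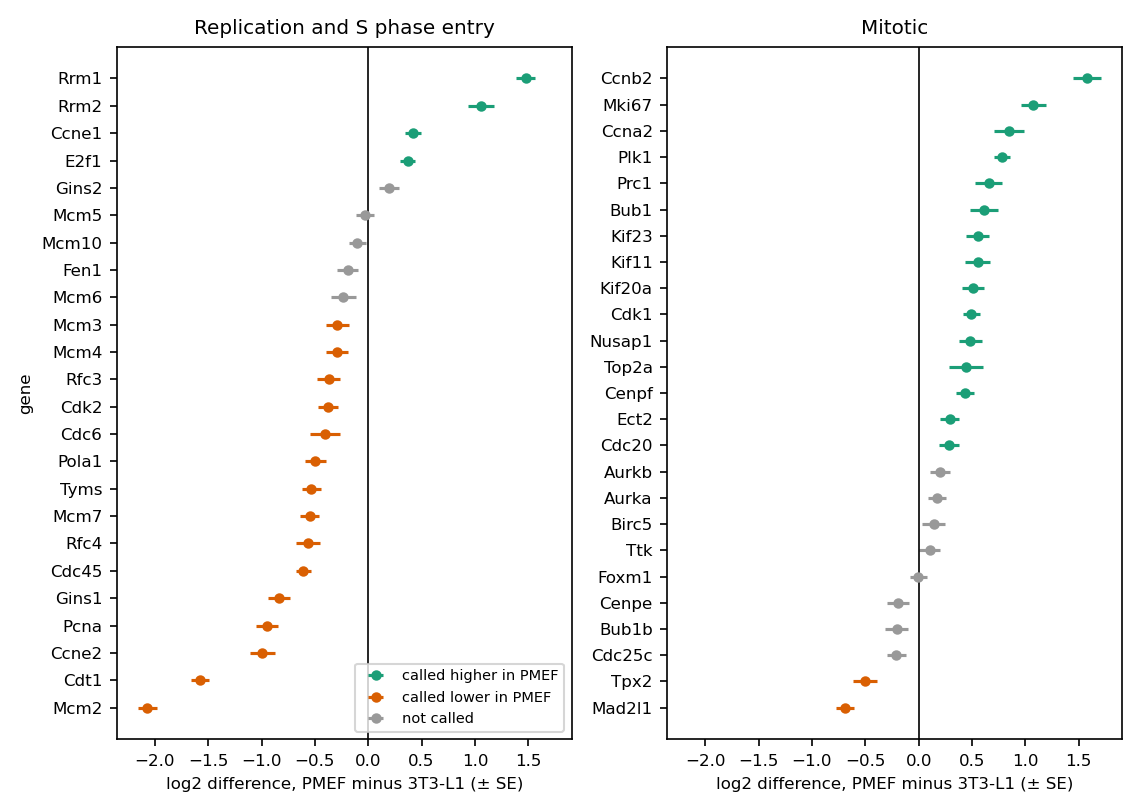
Log2 difference of PMEF minus 3T3-L1 adipocytes (points, ± SE) for replication genes (left) and mitotic genes (right), sorted by value, green where called higher in PMEF, orange where called lower and grey where not called. On the left 15 genes are orange, down to Mcm2 at -2.07, and on the right 15 are green, up to Ccnb2 at 1.58.

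Markers of fibroblasts moved with this comparison. All 8 fibroblast and preadipocyte markers, among them Pdgfra, Thy1 and Col1a1, were called at least 4-fold higher in PMEF than in 3T3-L1 adipocytes (median 2.83), where 22.3% of all genes were called higher by any amount. Their summed intensity was 14.40 to 14.46 (log2) on the PMEF arrays, 12.68 to 12.75 on the ES arrays, 12.58 to 12.82 on the eWAT arrays and 11.56 to 11.62 on the 3T3-L1 arrays, where Cd34 was dim. Their part in the difference was not tested. Adipocyte markers were 14.95 to 15.03 in 3T3-L1, 15.07 to 15.10 in PMEF, 15.41 to 15.44 in ES and 15.49 to 15.54 in eWAT. Of these 10, 6 were called lower than eWAT in 3T3-L1 and 8 in PMEF adipocytes, with none higher. In ES adipocytes 2 were called higher and 4 lower. Over all genes 22.5%, 21.6% and 20.9% were called lower in these models. Cebpa read 7.55, 7.69 and 7.45 in 3T3-L1 against 10.56, 10.26 and 10.49 in eWAT.

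ES adipocytes lay between the other models in the balance of the 2 sets. Against 3T3-L1 adipocytes, 2 of 24 replication genes were called higher and 11 lower (median -0.19), where 20.4% of all genes were called higher and 23% lower. The median of all genes was -0.02. Mcm2 (-2.04 ± 0.09), Cdt1 (-1.21 ± 0.09), Gins1 (-1.08 ± 0.10), Tyms (-0.78 ± 0.09), Mcm6 (-0.61 ± 0.12) and Mcm4 (-0.52 ± 0.10) were the lowest, and Ccne1 (1.03 ± 0.08) and Rrm1 (0.42 ± 0.09) the 2 called higher. On reference genes without Pgk1 the counts were 5 higher and 8 lower. Of the 25 mitotic genes, 8 were called higher and 4 lower (median 0.21), but this split had no stable direction. It was 6 and 6 after quantile normalization, 4 and 7 after median centring, and 17 and 3 on reference genes without Pgk1, and 5 were called higher without 3T3-L1 replicate 3. Top2a (0.96 ± 0.16), Ccnb2 (0.79 ± 0.13), Mki67 (0.72 ± 0.12) and Ccna2 (0.70 ± 0.14) were the highest of those called, and Tpx2 (-0.67 ± 0.11), Bub1b (-0.56 ± 0.11), Mad2l1 (-0.48 ± 0.08) and Cenpe (-0.45 ± 0.11) were the 4 called lower. With the mean of its probe sets, of which the second was dim on every array, Top2a stood at 0.17 and was not called.

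Against PMEF adipocytes, 9 replication genes were called higher and 5 lower in ES adipocytes (median 0.11), where 23.6% of all genes were called higher and 19% lower. The median of all genes was -0.02. On reference genes these counts turned to 3 and 12, with the median of all genes at -0.29. Ccne2 (0.64 ± 0.12), Ccne1 (0.61 ± 0.08), Cdk2 (0.61 ± 0.10), Pcna (0.50 ± 0.10) and Rfc4 (0.48 ± 0.11) were the highest of those called, of which Pcna (0.23) and Rfc4 (0.22) were not called on reference genes. Rrm1 (-1.05 ± 0.09) and Rrm2 (-0.98 ± 0.12) were the lowest, ahead of E2f1 (-0.45 ± 0.07). The other 2 called lower, Mcm6 and Tyms, lost their calls on leaving out 1 of several arrays, so that 3 were called without ES replicate 1 or 3. Of the mitotic genes 10 were called lower and 1 higher (median -0.22), falling to 6 lower without PMEF replicate 1 and 5 without ES replicate 1. Ccnb2 (-0.79 ± 0.13), Kif20a (-0.60 ± 0.10) and Prc1 (-0.49 ± 0.12) were the lowest. The gene called higher was Top2a (0.52 ± 0.16), which was not called without PMEF replicate 2 (0.50) or 3 (0.41) or ES replicate 2 (0.42), or on reference genes (0.25).

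Genes of the pathway outside the list were counted in the same way, but as deposited only, since other centring of arrays was not tried on them. In PMEF against 3T3-L1 adipocytes such centring moved the median of all genes from 0.01 to -0.21 (medians) or 0.31 (reference genes). The direction of the list median in that comparison is therefore not firm. Of 36 other replication genes, 23 were called higher and 0 lower than eWAT in 3T3-L1 adipocytes (1 lower at an unadjusted p under 0.05 in the limma fit), 17 and 3 in PMEF, and 26 and 1 in ES adipocytes, with medians of 0.43, 0.22 and 0.44. Over all genes 30.8%, 24.7% and 28.8% were called higher than eWAT in 3T3-L1, PMEF and ES adipocytes, and 22.5%, 21.6% and 20.9% lower. Between PMEF and 3T3-L1 adipocytes 4 of the 36 were higher and 17 lower (median -0.20), against 22.3% and 27.8% of all genes. Chaf1b, a subunit of the histone chaperone that packs new DNA, read 7.46, 7.49 and 7.54 in 3T3-L1, 6.63, 6.48 and 6.29 in PMEF, 6.10, 6.10 and 5.97 in ES and 5.28, 5.41 and 5.32 in eWAT. The groups lay apart, and Chaf1b was 2.16 ± 0.09 above eWAT in 3T3-L1 adipocytes. The replication protein A subunit Rpa3 (-1.20 ± 0.10) and the origin recognition subunit Orc2 (-1.10 ± 0.11) were the other 2 most lowered in PMEF against 3T3-L1 adipocytes. Tipin, of the fork protection complex, was the most raised in ES adipocytes against eWAT (1.21 ± 0.10), and the DNA polymerase alpha subunit gene Pola2 was lower than eWAT in PMEF (-0.36 ± 0.08) and ES adipocytes (-0.48 ± 0.08).

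Of 50 other mitotic genes, 33 were called higher and 1 lower than eWAT in 3T3-L1, 40 and 1 in PMEF, and 34 and 2 in ES adipocytes, with medians of 0.45, 0.53 and 0.50. Over all genes 30.8%, 24.7% and 28.8% were called higher than eWAT in these models, and 22.5%, 21.6% and 20.9% lower. PMEF adipocytes were called higher than 3T3-L1 in 21 of the 50 and lower in 10 (median 0.19), against 22.3% and 27.8% of all genes. This median too was taken as deposited only, and its direction is not firm under other centring. Cks2, a subunit that binds Cdk1, was higher than eWAT by 1.76 ± 0.08, 1.95 ± 0.08 and 2.05 ± 0.08 in 3T3-L1, PMEF and ES adipocytes. Ckap2, a spindle protein, was highest in PMEF (2.18 ± 0.14), and the contractile ring gene Anln in 3T3-L1 adipocytes (1.70 ± 0.09). Pttg1, securin, was the gene called lower in every model. It read 8.26, 8.35 and 8.31 in eWAT, 7.70, 7.92 and 7.59 in PMEF, 6.86, 6.83 and 6.86 in ES and 6.51, 6.52 and 6.31 in 3T3-L1. The groups lay apart, with 3T3-L1 adipocytes at -1.86 ± 0.09 from eWAT.

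Upstream of these genes, cyclin D, its kinases and Myc differed between models. Of 9 such genes 7 were called higher and 1 lower than eWAT in each of the 3 models. Medians were 0.91, 1.11 and 0.57 in 3T3-L1, PMEF and ES adipocytes. Over all genes 30.8%, 24.7% and 28.8% were called higher in these models, and 22.5%, 21.6% and 20.9% lower. The kinase genes Cdk4 (0.97, 1.16 and 0.97) and Cdk6 (1.62, 1.62 and 0.57) were called higher than eWAT in 3T3-L1, PMEF and ES adipocytes, as were Ccnd2 (0.85, 1.33 and 0.36), the phosphatase gene Cdc25a (1.18, 1.11 and 1.38) and Cdk7 (0.91, 0.68 and 0.77). Ccnd1, cyclin D1, read 10.62, 10.66 and 10.50 in PMEF, 8.32, 8.24 and 8.49 in 3T3-L1, 7.21, 7.32 and 7.55 in ES and 8.41, 8.63 and 8.55 in eWAT. It was 2.07 ± 0.10 above eWAT in PMEF and -1.17 ± 0.10 from it in ES adipocytes. Ccnd3 fell below eWAT in 3T3-L1 (-1.13 ± 0.07) and was above it in PMEF adipocytes (0.77 ± 0.07). Myc, a transcription factor that promotes growth and division, read 10.91, 10.78 and 10.79 in 3T3-L1, 8.81, 9.11 and 8.94 in ES, 7.89, 7.65 and 7.49 in PMEF and 7.80, 8.55 and 8.60 in eWAT. It was 2.51 ± 0.18 above eWAT in 3T3-L1 and 0.64 ± 0.18 in ES, and -0.64 ± 0.18 from it in PMEF adipocytes, whose arrays overlapped with eWAT.

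Inhibitors of the cycle were called both higher and lower than eWAT in each model. Over all genes 30.8%, 24.7% and 28.8% were called higher in 3T3-L1, PMEF and ES adipocytes, and 22.5%, 21.6% and 20.9% lower. Of the 14 measured, 5 were called higher and 6 lower than eWAT in 3T3-L1, 5 and 4 in PMEF, and 8 and 2 in ES adipocytes, with medians of -0.06, -0.03 and 0.37. The CDK inhibitor genes Cdkn2a and Cdkn2b, which restrain Cdk4 and Cdk6 among other actions, were called higher than eWAT in all 3 models. Cdkn2a read 8.39, 8.32 and 8.48 in 3T3-L1, 7.93, 7.84 and 8.11 in PMEF, 7.71, 7.83 and 7.54 in ES and 5.89, 5.68 and 6.14 in eWAT, with differences of 2.49 ± 0.12, 2.05 ± 0.12 and 1.79 ± 0.12. For Cdkn2b they were 1.66, 2.20 and 1.69. Cdkn1c read 9.54, 9.61 and 9.68 in PMEF, 8.17, 8.04 and 8.04 in ES, 6.92, 6.71 and 6.82 in 3T3-L1 and 7.11, 7.11 and 7.03 in eWAT, so PMEF adipocytes were the highest (2.53 ± 0.08 above eWAT) and 3T3-L1 the lowest. Gadd45a, a growth arrest and DNA damage response gene, was highest in 3T3-L1 (3.56 ± 0.14), with 1.99 in ES and 0.67 in PMEF adipocytes. Of the Rb family, which holds E2F in check, Rbl1 was lower than eWAT in all models (-0.74, -1.25 and -1.03), Rb1 in 3T3-L1 (-0.99) and PMEF (-0.93), and Rbl2 in 3T3-L1 (-0.73) and ES adipocytes (-0.69). Cdkn1a had only a probe set shared with another symbol and was not analysed here.

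**Figure D5:**
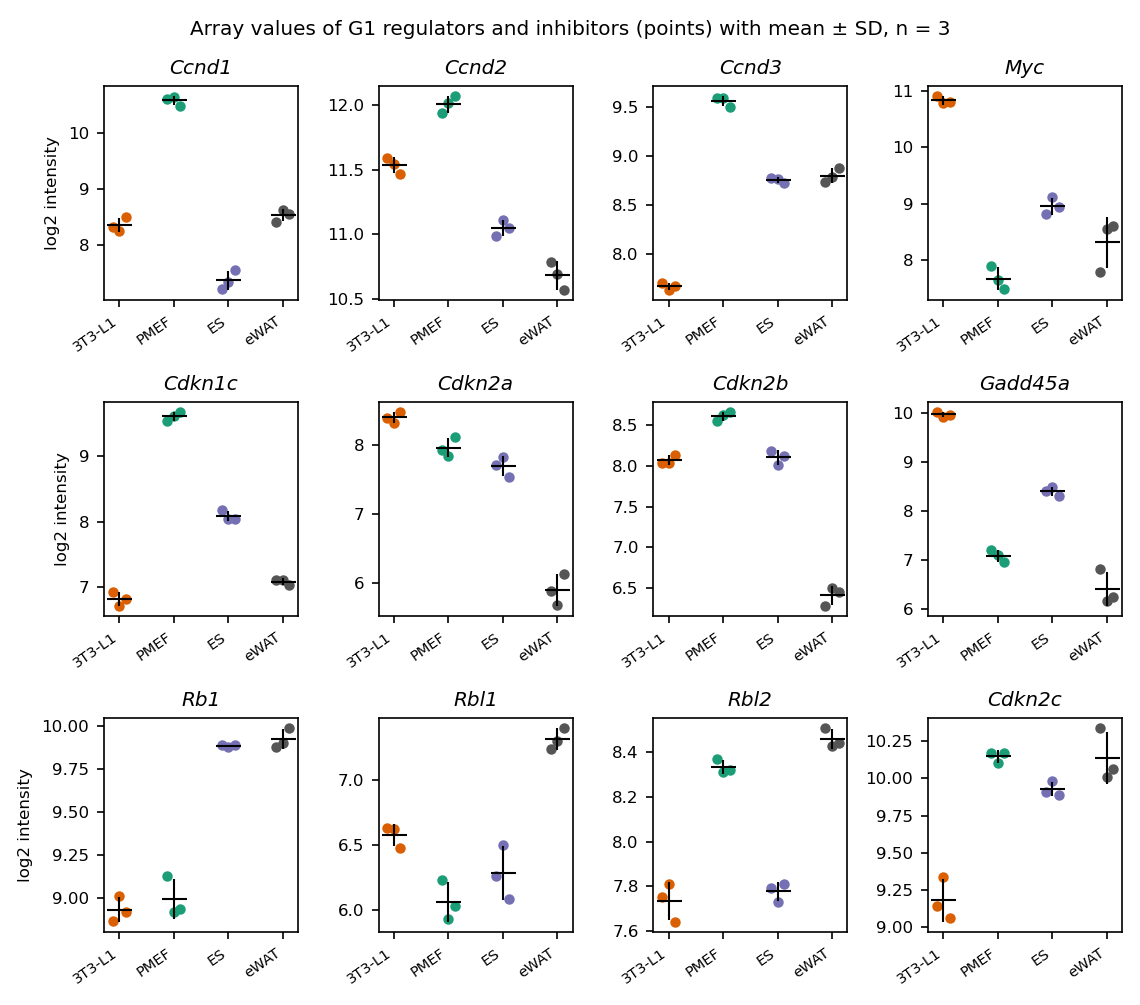
Log2 intensity on each array (points) with group mean and SD (bars, n = 3) for 12 G1 regulators and inhibitors, each panel with its own axis range. Myc and Gadd45a were highest in 3T3-L1 (Gadd45a 3.56 above eWAT), Ccnd1 and Cdkn1c in PMEF (2.07 and 2.53), and Rbl1 in eWAT.

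Of 15 E2F, DP and MuvB genes, 7 were called higher and 3 lower than eWAT in 3T3-L1, 3 and 3 in PMEF, and 6 and 2 in ES adipocytes, with medians of 0.02, -0.05 and 0.13. All genes were called higher in 30.8%, 24.7% and 28.8% and lower in 22.5%, 21.6% and 20.9%, so the PMEF counts are near this share. E2f6, a repressor E2F, read 6.09, 6 and 6.02 in 3T3-L1 adipocytes against 7.67 to 8.01 in eWAT, 7.75 to 8.11 in PMEF and 8.06 to 8.14 in ES. The 3T3-L1 arrays lay far below all others (-1.79 ± 0.10 from eWAT). E2f3, an activator, was higher than eWAT in all models (1.06, 0.67 and 0.91), and Lin9, a MuvB subunit, in 3T3-L1 (0.73) and ES adipocytes (0.91).

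Other cell types of tissue moved with the comparisons against eWAT. The summed intensity of 8 macrophage markers was 12.53 to 13.49 (log2) on the eWAT arrays and 9.19 to 10.76 on the model arrays, that of 6 endothelial markers 12.21 to 12.53 against 7.75 to 8.17, and that of 7 lymphocyte markers 9.01 to 9.56 against 7.39 to 7.75. All 8 macrophage and all 6 endothelial markers were above the dim level on every eWAT array, while Adgre1 and Itgam were dim on all model arrays. The macrophage marker Cd68 ran the other way in 3T3-L1 adipocytes, at 10.58, 10.37 and 10.3 against 8.89, 9.65 and 9.91 in eWAT. It was called higher there, while the other 7 were called lower, and it was the brightest part of the 3T3-L1 sum of 10.54 to 10.76. Of the 7 genes listed as lymphocyte markers, Ptprc, a gene of leukocytes in general, was the brightest in eWAT (8.02, 8.37 and 8.86). Their sum is therefore not particular to lymphocytes. Cd79a and Ms4a1 were dim on all eWAT arrays. Of 6 pluripotency markers, Pou5f1 and Zfp42 were dim on all arrays. In ES adipocytes 4 of the 6 were called higher than eWAT and 0 lower (median 0.39), with Sox2 the most raised (1.62). In 3T3-L1 and PMEF adipocytes 1 and 2 of them were called higher. Shares of all genes called higher were 30.8%, 24.7% and 28.8% in 3T3-L1, PMEF and ES adipocytes. The part of these cells in the levels of cell cycle genes was not tested. Over all genes, array medians were 6.107 to 6.121 in 3T3-L1 and 6.311 to 6.355 in the other groups, and arrays of a group correlated at 0.9917 to 0.9973 across genes. With 3 arrays a group, their number limits the precision of every value, and a difference against a dim group is the fitted value and no bound. Levels of different genes come from different probes and were not compared.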

How the data were processed

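RNA was extracted with TRIzol, and 300 ng of total RNA was amplified with the Ambion WT Expression kit, per the labels' protocols. The table holds log2 intensities as deposited by the authors; the sources used here do not state the software, background correction or normalization, and the log base was read from the values, which run from 1.11 to 13.48. Of 35556 probe sets, 21789 carried 1 gene symbol, 1621 several and 12146 none in the platform annotation, and 21698 of the first were matched to RefSeq by Entrez identifier. They gave 19938 genes, 999 of them with several probe sets.

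The members and the other gene lists were chosen with earlier results of these data known. The 12 arrays entered 1 linear model with a mean for each group (limma 3.58.1, R 4.3.3, with 8 residual and 4.88 prior degrees of freedom) and p-values were adjusted by Benjamini-Hochberg over all genes. The fit was tested on simulated data. Values per array are given for members with the largest differences in each comparison and for those against the direction of their set; other lists are named by their largest called differences, and G1 genes and inhibitors freely. Replicate numbers did not pair samples (r of deviations from -0.137 to 0.108). Alternatives were quantile normalization, other centring of arrays, a filter on dim genes, the mean of probe sets, other estimates of spread, a block on replicate number and leaving out each array.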

Additional observations from a re-analysis of the deposited data

Results flagged for a closer look

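Mki67 and Gins1 were called in opposite directions against eWAT in different models, and the difference between those models was itself called in the limma fit. Mki67 was lower than eWAT in 3T3-L1 adipocytes and higher in PMEF adipocytes, and PMEF minus 3T3-L1 was 1.08 (adjusted p = 3.05e-06). Against ES adipocytes, where it was also above eWAT, ES minus 3T3-L1 was 0.72 (adjusted p = 0.000188). Gins1 was higher than eWAT in 3T3-L1 and lower in ES adipocytes, and ES minus 3T3-L1 was -1.08 (adjusted p = 1.09e-06). The calls against eWAT for Mki67 in 3T3-L1 and for Gins1 in ES adipocytes were lost when single arrays were left out, whereas the differences between models lay far from the threshold.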

How the results depend on the processing

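Of 6138 values for 294 member comparisons under 21 alternatives, 195 lost the call, 144 gained one, 11 reversed and 5788 kept their side of the threshold, 86 of the latter with a changed sign where neither value was called. The centring of arrays mattered most, and Pgk1, 1 of the reference genes, differed between groups (1.94 higher in ES adipocytes than in eWAT), so centring without it was added after seeing the data. Arrays, with no detection calls, limit what can be said of dim genes.

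In 3T3-L1 adipocytes against eWAT, 1 mitotic gene was called lower after quantile normalization, median centring or a fit of those 2 groups, and 1 to 2 when an array was left out. The mitotic median was 0.72 (quantile), 0.75 (medians), 0.25 (reference genes) and 0.37 (without Pgk1), and the replication median 0.89 (medians), 0.38 (reference genes) and 0.51 (without Pgk1). In ES adipocytes against eWAT, the replication genes called lower numbered 1 (quantile, reference genes without Pgk1, or the replicate block) and 4 (reference genes), and 0 to 2 when an array was left out. The medians on reference genes were 0.54 (mitotic) and 0.15 (replication).

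In PMEF against 3T3-L1 adipocytes, mitotic genes called lower numbered 6 (quantile or medians) and 1 (reference genes), and replication genes on reference genes 7 higher and 9 lower. The mitotic median was 0.22 (quantile and medians), 0.73 (reference genes), 0.62 (without Pgk1), 0.29 (mean of probe sets) and 0.31 to 0.47 when an array was left out. The replication median was -0.59 (medians), -0.079 (reference genes) and -0.19 (without Pgk1).

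In ES against 3T3-L1 adipocytes, mitotic genes called higher numbered 4 (medians), 17 (reference genes without Pgk1) and 5 to 10 when an array was left out, and those called lower 7 (medians). Replication genes called higher numbered 5 without Pgk1. The mitotic median was 0.049 (quantile), 0.008 (medians) and 0.39 (without Pgk1), and the replication median -0.34, -0.40 and -0.015 in the same order, and -0.26 to -0.16 when an array was left out. In ES against PMEF adipocytes, mitotic genes called higher numbered 2 (medians, dimmest genes left out, or trended and robust variance) and 0 (reference genes), and 0 to 1 when an array was left out, and those called lower 20 (reference genes) and 5 to 11 when an array was left out. Replication genes on reference genes were 3 higher and 12 lower, and 3 to 5 were lower when an array was left out. On reference genes the mitotic median was -0.49 and the replication median reversed to -0.16.

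Members that reversed did so on reference genes, except Top2a. Cdk2 in 3T3-L1 adipocytes against eWAT became -0.001. In ES against PMEF adipocytes Aurkb became -0.26, Cdc45 -0.075, Mcm2 -0.23 and Mcm5 -0.21. In PMEF against 3T3-L1 adipocytes Foxm1 became 0.29, Mcm10 0.19, Mcm3 0.005, Mcm4 0.005 and Mcm5 0.26. Top2a in PMEF against 3T3-L1 adipocytes became -0.14 with the mean of its probe sets, of which the second was dim on every array. Apart from the centring itself and the smaller fits, the cause was not tested. The replicate block moved no other count of member calls by over 1.5 times.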
